A study of Mus musculus with 2 samples.

Results

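The genes of the elastic fibre and its microfibrils were examined in the colon: elastin (Eln), the fibrillins Fbn1 and Fbn2, the fibulins Fbln1, Fbln2, Fbln5 and Efemp1, the interface protein gene Emilin1, and the microfibril-associated protein genes Mfap4 and Mfap5. They were chosen by name, with earlier results of these data known, and all 10 were among the 27874 gene symbols measured. Poly(A)-selected RNA came from colon tissue of C57BL/6J mice that the labels call lamina propria, which is the loose connective layer beneath the lining epithelium. The tested genotype, K14/hyal1, takes its name from keratin 14, whose promoter drives expression in basal cells of skin and other stratified epithelia, and from Hyal1, a hyaluronidase that cuts hyaluronan, a sugar polymer of the matrix. The other genotype was Control. Each had 1 library, and the sources used here do not give the age, the sex, the number of animals or whether animals were pooled. Every difference below is therefore one between 2 libraries, with no replicate check and no test. By its title the study is about inflammatory crosstalk of epithelia by way of stromal fibroblasts, and fibroblast matrix transcripts of the colon bear on that question.

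An elastic fibre has a core of crosslinked elastin laid down on a scaffold of microfibrils, which are built from fibrillins. Fibulins, emilins and microfibril-associated glycoproteins bind elastin, fibrillin or both and help to place elastin on the scaffold, and lysyl oxidases then crosslink it. In the gut wall such fibres lie in blood vessels, in the submucosa and in the loose tissue around the crypts, and fibroblasts and smooth muscle cells are their main sources.

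Levels are in CPM, reads of a gene per 1000000 reads of its library. From the smallest steps in the values, the totals behind the CPM were estimated at 29020588 reads for K14/hyal1 and 61105575 for Control. Of these, 13813104 reads were estimated in the table for K14/hyal1 and 25446449 for Control. The table's values summed to 475975 CPM in K14/hyal1 and 416434 CPM in Control, so the share of reads inside it differed between the libraries. As the floor of detection, 3 reads were worth 0.103 CPM in K14/hyal1 and 0.0491 CPM in Control. Brackets give exact 95% intervals, Poisson for a level and binomial (Clopper-Pearson) for a ratio, which cover counting error only. Hyal1 was at 3.77 CPM in K14/hyal1 and 3.36 CPM in Control, a ratio of 1.12 (0.879 to 1.42), and whether these values register the transgene was not tested. The libraries also differed outside the connective tissue. The ribosomal RNA entry Rn18s-rs5 was at 34329 CPM in K14/hyal1 and 5826 CPM in Control. Of 5 skin and salivary gland markers, 2 were past the expression filter given below: the gland secretory gene Dcpp3, with 0 reads in K14/hyal1 and 790 CPM in Control, and the gland mucin gene Muc19, with 0.0345 CPM in K14/hyal1 and 68.0 CPM in Control. The part of these library differences in the results below was not tested.

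Most elastic fibre genes were higher in K14/hyal1, 6 of them by 2-fold or more, and 0 were lower by that much. The fibrillin-1, fibulin-2 and elastin genes led by log2 ratio, Mfap5 came next, and Efemp1 and Fbln5 were nearer to the 2-fold line. Mfap4 was at nearly the same level in both libraries. The call used log2((K14/hyal1 + 1)/(Control + 1)), with a pseudocount of 1 CPM that understates differences of low genes, and a filter at a mean of 2.31 CPM. By this rule 6 of the 9 elastic fibre genes past the filter were called higher, where the rule called 3.75% of all 13563 genes past the filter higher and 1.54% lower. Their median log2 ratio was 1.20, and that of all genes past the filter was 0.21. Scaled to the median gene, the rule called 2.22% of all genes higher and 2.55% lower, and 4 of the 9 elastic fibre genes higher, without Efemp1 and Fbln5. Fbln5 and Mfap5 had Control levels below 2.31 CPM and passed the filter through their K14/hyal1 level, so their place among the called genes depends partly on the filter. Fbn2, with a mean of 2.27 CPM, was just below it.

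**Figure D1:**
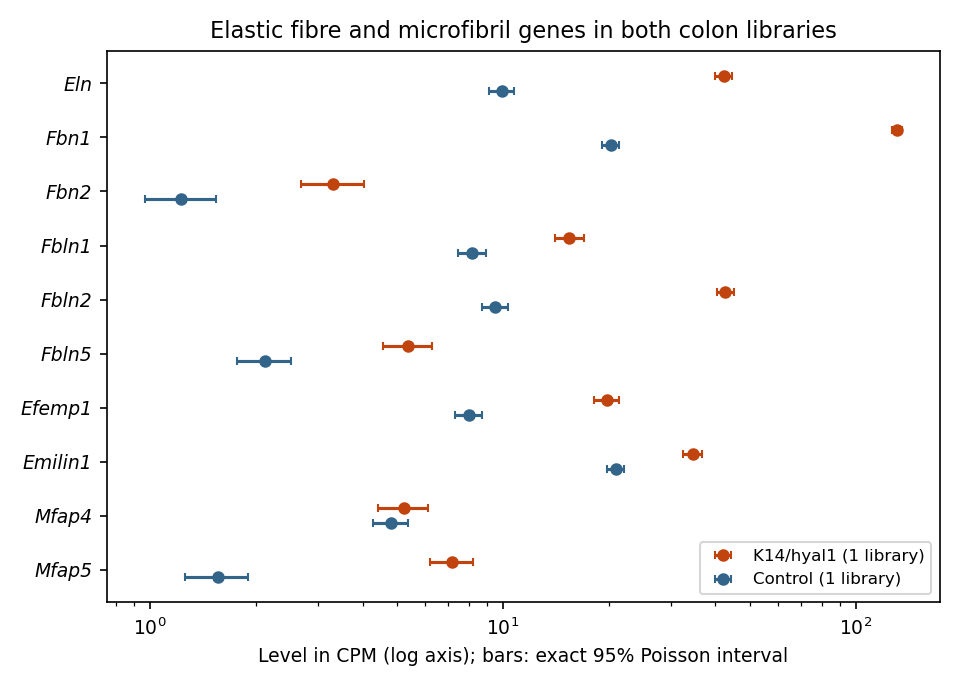
Level of each elastic fibre and microfibril gene in CPM on a log axis, with the K14/hyal1 library above the Control library for each gene and bars for the exact 95% Poisson interval of the estimated reads. The K14/hyal1 point lies to the right of the Control point for all 10 genes, of which Mfap4 changes sides when scaled to the median gene, and the bars of both libraries overlap for Mfap4.

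Elastin is the core protein of the fibre, made as soluble tropoelastin. Eln had 42.3 CPM in the K14/hyal1 library (39.9 to 44.7) and 9.92 CPM in the Control library (9.14 to 10.7), which is 4.26-fold higher (3.86 to 4.71). Its locus is on chromosome 5 at 134702593-134747323, minus strand, in GENCODE M21 on mm10. Its log2 ratio of 1.99 ranked 76 among the 13563 genes past the filter, from the highest down. The table splits Eln into 5 transcript rows that carry no transcript names, and the rows did not differ between the libraries by the same factor. The 3 rows that were highest in K14/hyal1 had 13.4, 13.0 and 11.2 CPM in K14/hyal1, against 2.12, 2.45 and 2.56 CPM in Control. The next row had 3.44 CPM in K14/hyal1 and 2.37 CPM in Control, only 1.45-fold higher, and the last had 1.21 CPM in K14/hyal1 and 0.413 CPM in Control. The row at 1.45-fold therefore made up 8.15% of Eln in K14/hyal1 and 23.9% in Control. How reads were divided among rows is not stated, so the row values are estimates.

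The fibrillins polymerise into the microfibrils. Fbn1, the main fibrillin of adult tissue, had 131 CPM in K14/hyal1 (127 to 135) and 20.2 CPM in Control (19.1 to 21.4), a ratio of 6.47 (6.07 to 6.91). It was the gene with the largest ratio of the 10 and ranked 30 among all genes past the filter by log2 ratio (2.64). One of its 3 transcript rows held 99.1% of its level in K14/hyal1 and 98.5% in Control. Fbn1 is on chromosome 2 at 125300594-125507993, minus strand, and the annotated gene Gm9913 on the opposite strand covers 20.1% of its exon bases. Gm9913 itself had 0.864 CPM in K14/hyal1 and 0.423 CPM in Control, and since the use of strand in counting is not given, reads of the pair may not be fully separated. Fbn2, a fibrillin best known from development, is on chromosome 18 and had 3.31 CPM in K14/hyal1 (2.68 to 4.04) and 1.23 CPM in Control (0.965 to 1.54). Its plain ratio was 2.70 (1.97 to 3.70), but its log2 ratio with the pseudocount was 0.95.

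The fibulins bind elastin and microfibrils and bridge them to other matrix proteins. Fbln2, which binds elastin, fibrillin and basement membrane proteins, had 42.7 CPM in K14/hyal1 (40.3 to 45.1) and 9.51 CPM in Control (8.75 to 10.3), a ratio of 4.49 (4.07 to 4.96). Of its 7 rows, the 3 highest had 26.8, 10.2 and 4.69 CPM in K14/hyal1 and 5.85, 1.83 and 1.37 CPM in Control, so each was over 3-fold higher. It lies on chromosome 6 at 91212455-91272540, plus strand. Efemp1, which encodes fibulin-3, had 19.7 CPM in K14/hyal1 (18.1 to 21.4) and 8.0 CPM in Control (7.31 to 8.74), a ratio of 2.46 (2.18 to 2.78). Both of its rows were higher, at 2.37-fold and 2.80-fold. Fbln5, which tethers tropoelastin to the microfibril and binds integrins, had 5.38 CPM in K14/hyal1 (4.57 to 6.29) and 2.11 CPM in Control (1.76 to 2.51), a ratio of 2.55 (2.00 to 3.24). Its log2 ratio of 1.04 was the closest to the 2-fold line among the called genes. Fbln1, which binds fibronectin, elastin and basement membrane proteins, had 15.4 CPM in K14/hyal1 (14 to 16.9) and 8.18 CPM in Control (7.48 to 8.93). Its ratio of 1.89 (1.66 to 2.15) was below 2-fold. Among the fibulins the intervals of the ratios of Fbln2 and of the other genes did not overlap, those of Efemp1 and Fbln5 did, and so did those of Fbln5 and Fbln1.

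The remaining genes encode proteins at the surface of the microfibril. Mfap5, the glycoprotein MAGP-2 that binds fibrillins, had 7.17 CPM in K14/hyal1 (6.23 to 8.21) and 1.55 CPM in Control (1.26 to 1.90), a ratio of 4.61 (3.60 to 5.94). Its interval is the widest among the called genes, because it rests on 208 estimated reads in K14/hyal1 and 95 in Control. Emilin1, a glycoprotein of the interface between elastin and microfibrils that also anchors lymphatic vessels, had 34.5 CPM in K14/hyal1 (32.4 to 36.7) and 20.9 CPM in Control (19.8 to 22.1). It had the highest level per length of the 10 genes in Control, as given below, and a ratio of 1.65 (1.52 to 1.80). Mfap4, a fibrinogen-related protein that binds elastin and fibrillin-1, had 5.24 CPM in K14/hyal1 (4.44 to 6.14) and 4.81 CPM in Control (4.28 to 5.39). Its ratio of 1.09 (0.889 to 1.33) spans 1, so no difference was detectable at this depth. Its log2 ratio was 0.10 as deposited, -0.09 scaled to the median gene and -0.06 with TMM scaling, so its sign is not fixed. Mfap5 is on chromosome 6 at 122505845-122529290, Emilin1 on chromosome 5 at 30913402-30921277 and Mfap4 on chromosome 11 at 61485431-61488900, all on the plus strand.

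**Figure D2:**
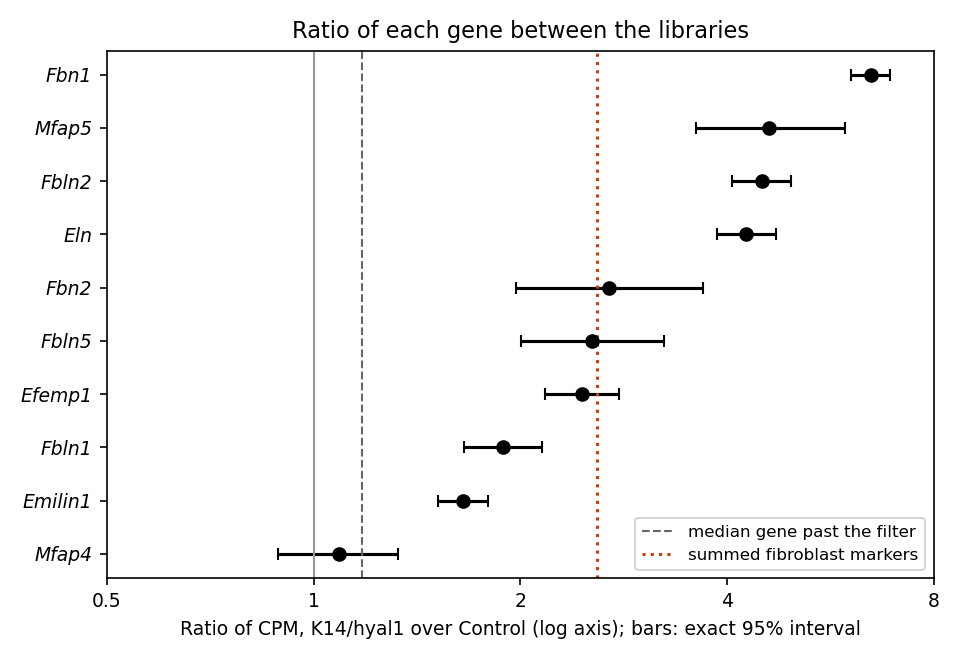
Ratio of CPM, K14/hyal1 over Control, on a log axis for each gene, with exact 95% binomial intervals for counting error. Fbn1 at 6.47, Mfap5 at 4.61, Fbln2 at 4.49 and Eln at 4.26 lie well to the right of the dotted line at 2.59 for the summed fibroblast markers, Fbn2 at 2.70 lies just to its right, and Mfap4 lies nearest to the solid line at 1 and the dashed line at 1.18 for the median gene.

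The authors' deposited table gives the same ratios with false discovery rates from a model that the sources used here do not state. Its headers name the groups K14/Hyal1*Control and Control*Control, and do not say what the second term, Control in both, stands for. A column of total counts in the authors' deposited table exceeds the sum of its 2 colon values for the same genes, so the model may have drawn on further libraries, and the rates cannot be read as coming from these 2 libraries alone. Of 15869 genes there, 239 (1.51%) had a rate under 0.05 in the authors' deposited table and were higher in K14/hyal1. Of the elastic fibre genes the authors' deposited table puts Fbn1 (2.0e-12), Fbln2 (0.00247) and Eln (0.00324) under 0.05. For the other 7 the rate in the authors' deposited table lay between 0.517 and 1.0.

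**Figure D3:**
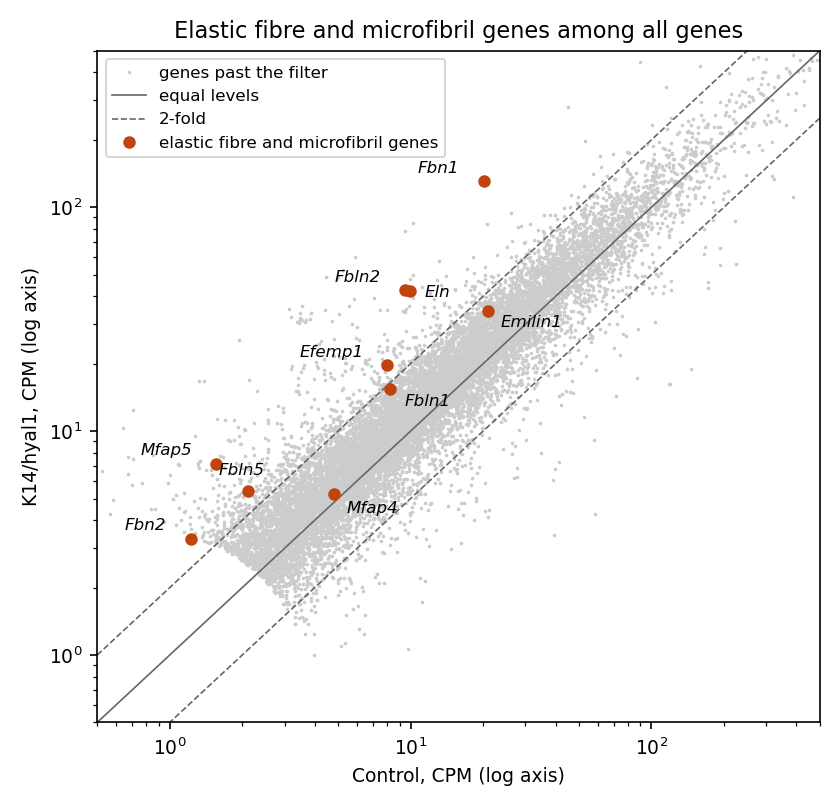
Levels in K14/hyal1 (vertical) against Control (horizontal) in CPM on log axes, shown between 0.5 and 500 CPM, with grey points for genes past the filter, which have a mean of at least 2.31 CPM. Fbn1, Fbln2 and Eln stand above the upper dashed 2-fold line and apart from the main cloud, and Mfap4 lies inside the cloud. The dashed lines are plain 2-fold ratios without the pseudocount of the calls. Mfap5, Fbn2, Fbln5 and Efemp1 therefore also lie above the upper one, and Fbn2 is shown although it is below the filter.

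Within each library the genes ranked differently once levels were divided by the length of the longest coding transcript. In K14/hyal1 Eln (11.0 CPM per kb), Fbn1 (10.9), Efemp1 (9.66), Emilin1 (8.96) and Fbln2 (8.92) were within a narrow range. The intervals of Eln and Fbn1 overlap, as do those of Efemp1, Emilin1 and Fbln2, and so do those of Eln and Efemp1, so the order among these genes is not fixed at this depth, although the intervals of Fbn1 and Efemp1 are apart. In Control the order was Emilin1 (5.42 CPM per kb), Efemp1 (3.93), Mfap4 (2.79), Eln (2.57), Fbln1 (2.24), Fbln2 (1.99) and Fbn1 (1.69). The intervals of Emilin1 and Efemp1 were separate from each other and from those of the genes after them, and from Mfap4 to Fbln2 each overlapped with the next. Mfap5 followed at 4.76 CPM per kb in K14/hyal1, with Fbln1 at 4.22 and Mfap4 at 3.04, and it had 1.03 CPM per kb in Control. Fbln5 and Fbn2 were lowest in both libraries, at 0.922 and 0.300 CPM per kb in K14/hyal1 and 0.362 and 0.111 CPM per kb in Control. Per kb, Eln was at 1.0 times the level of Fbn1 in K14/hyal1 and 1.52 times in Control, and at 1.23 times the level of Emilin1 in K14/hyal1 and 0.475 times in Control. Eln relative to Fbln2 was close in both, at 1.23 times in K14/hyal1 and 1.30 times in Control. Summed over the 10 genes the level was 307 CPM in K14/hyal1 and 86.4 CPM in Control, a 3.55-fold difference, and 2.65-fold without Fbn1, which made up 42.7% of the sum in K14/hyal1 and 23.4% in Control.

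**Figure D4:**
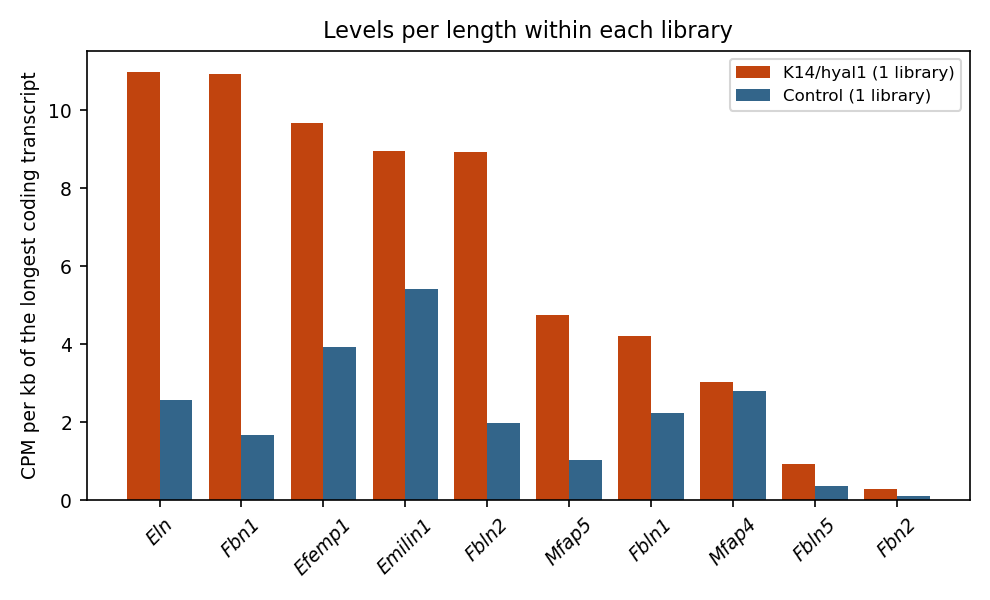
Bars of CPM per kb of the longest coding transcript for each gene, with K14/hyal1 left of Control, ordered by the K14/hyal1 level. The first 5 genes are close together in K14/hyal1, between 8.92 and 11.0, while in Control Emilin1 at 5.42 stands above the rest.

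Promoter sequences, from 250 bases before to 50 after the transcript start, are shown for the genes with the largest and the smallest ratios among the 6 that RefSeq's table on GRCm38.p6 holds, to set sequence beside the uneven ratios. They are Fbn1 (chr2:125506389-125506688, minus strand), Fbln2 (chr6:91212514-91212813, plus strand) and Emilin1 (chr5:30913536-30913835, plus strand), each written 5′ to 3′ on the gene's strand. Capitals mark the matches found to 4 motifs searched on both strands, which were the GC box GGGCGG, the E-box CACGTG, the AP-1 site TGANTCA and the TATA box TATAAA.
Fbn1: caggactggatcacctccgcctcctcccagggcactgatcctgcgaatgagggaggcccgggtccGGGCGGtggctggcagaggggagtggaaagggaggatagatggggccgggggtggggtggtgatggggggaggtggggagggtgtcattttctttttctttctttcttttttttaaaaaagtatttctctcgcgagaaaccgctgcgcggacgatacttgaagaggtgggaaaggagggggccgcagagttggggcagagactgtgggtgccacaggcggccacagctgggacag
Fbln2: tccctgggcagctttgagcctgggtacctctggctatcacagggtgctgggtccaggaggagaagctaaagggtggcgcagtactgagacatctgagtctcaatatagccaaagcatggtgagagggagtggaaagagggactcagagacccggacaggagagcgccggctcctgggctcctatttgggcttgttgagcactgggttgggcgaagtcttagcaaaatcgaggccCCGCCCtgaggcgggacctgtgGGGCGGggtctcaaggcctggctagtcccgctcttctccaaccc
Emilin1: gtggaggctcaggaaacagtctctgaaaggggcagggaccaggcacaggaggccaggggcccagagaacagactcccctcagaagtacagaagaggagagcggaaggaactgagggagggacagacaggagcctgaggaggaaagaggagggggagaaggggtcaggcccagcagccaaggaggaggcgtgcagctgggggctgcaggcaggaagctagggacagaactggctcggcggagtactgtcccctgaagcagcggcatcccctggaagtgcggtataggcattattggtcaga
All the matches in these 3 windows were GC boxes, 1 in Fbn1 and 2 in Fbln2, and Emilin1 had 0 matches to any of the 4. A GC box occurs in 35.7% of the 32851 promoter windows of this length in the table, so these matches are common ones. Efemp1 had 1 GC box and 1 AP-1 match, a motif in 7.81% of all windows. Fbln1 has 2 listed starts, both with 1 E-box, a motif in 7.15% of all windows, and the second with 2 GC boxes. Fbln5 also has 2 listed starts, with 2 GC boxes at the first and 0 matches at the second. The TATA box, in 13.6% of all windows, was in none of the windows of these 6 genes. A match is a description of letters and not of binding. Eln, Fbn2, Mfap4 and Mfap5 are named only.

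In a list of crosslinking genes and assembly partners, which includes family relatives such as Mmrn1, a few were much higher in K14/hyal1. Most were not called 2-fold different. Of its 30 genes, 24 were past the filter, with 4 called higher and 0 called lower, beside 3.75% and 1.54% of all genes. At a 1.5-fold threshold 10 of the 24 were higher and 1 lower, beside 17.7% and 4.89% of all genes. Their median log2 ratio was 0.40 beside 0.21 for all genes. Lox, the lysyl oxidase that crosslinks tropoelastin, had 9.30 CPM in K14/hyal1 and 2.49 CPM in Control, a ratio of 3.74 (3.05 to 4.59). It was 1 of 6 crosslinking genes, which had log2 ratios between 0.01 and 1.56. Emilin2, a relative of Emilin1, had 10.4 CPM in K14/hyal1 and 1.91 CPM in Control, a ratio of 5.45 (4.39 to 6.81). Its Control level is below 2.31 CPM, so it passed the filter through its K14/hyal1 level and its call depends partly on the filter. Mmrn1, an emilin-family gene that marks lymphatic endothelium in mouse tissue, had 31.3 CPM in K14/hyal1 and 3.68 CPM in Control, a ratio of 8.51 (7.34 to 9.89). Vcan, a hyaluronan-binding proteoglycan that also binds microfibrils, was at a ratio of 2.76 (2.54 to 2.99). The other 15 assembly partners past the filter had log2 ratios from 0.94 (Mmrn2) down to -0.67, and 13 of the 18 past the filter were above 1-fold. A similar share of all genes was above 1-fold. Adamts10, just below it at a log2 ratio of -0.003, ranked 9461 among the 13563 genes past the filter, at 69.8% from the highest down.

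Among the receptors of elastin and microfibrils and the proteases that act on elastin, 1 gene was called. The same rule called 3.75% of all genes past the filter higher and 1.54% lower. Of the 10 genes of the elastin-binding complex and of integrins that bind microfibrils, 0 were 2-fold different; the median log2 ratio was 0.43. Itgb1, the common integrin beta chain, was highest at a ratio of 1.92, and Itgb6, an epithelial integrin chain, was lowest at 0.668 (0.615 to 0.724). Of the 14 elastin-cleaving proteases listed, 12 were among the symbols measured, without Elane and Ctsg. Below the filter were 4 of them, Mmp7, Mmp9, Mmp12 and Prtn3. Of the 8 past the filter, 1 was called, the cathepsin K gene Ctsk, with 3.86 CPM in K14/hyal1 and 1.21 CPM in Control (ratio 3.19, 2.35 to 4.33). As with Emilin2, its Control level is below the filter and it passed through its K14/hyal1 level. Their median log2 ratio was 0.70 and all 8 were above 1-fold, as were about 69.8% of all genes past the filter. Of the 5 protease inhibitor genes past the filter, 0 were called and the median was 0.10, between Cst3, the cystatin C gene, at a ratio of 1.88 and Slpi, which encodes a leukocyte protease inhibitor, at 0.588.

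**Figure D5:**
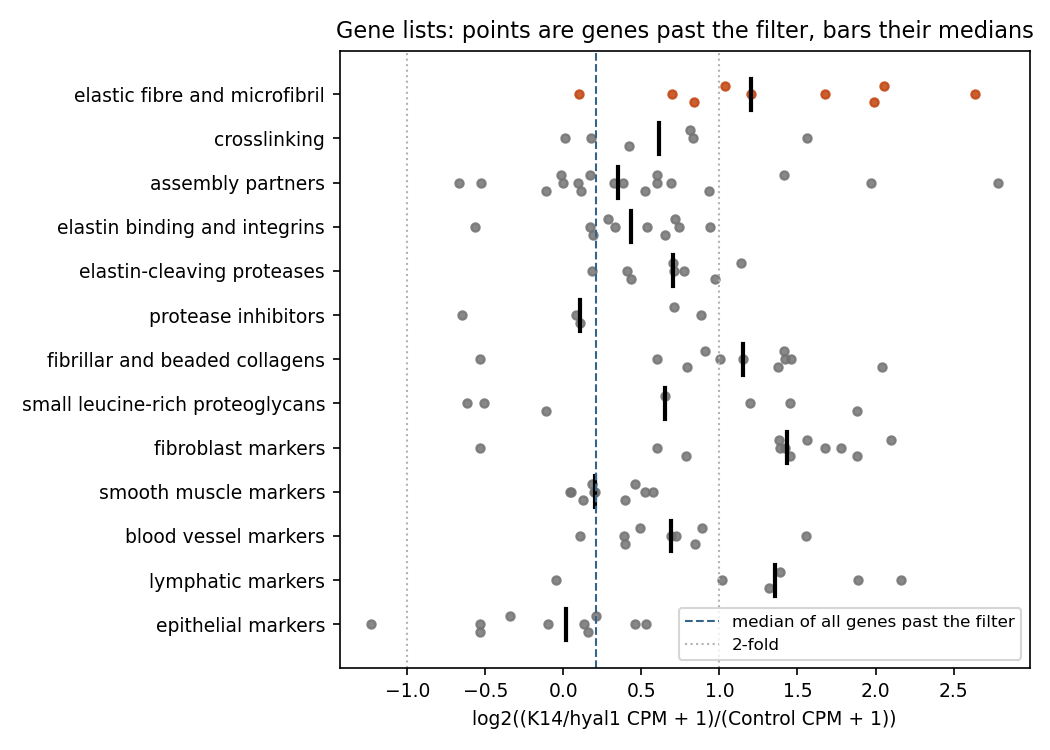
Log2 ratio, K14/hyal1 over Control with 1 CPM added to each, of the genes past the filter in each list drawn, with a black bar at the list's median, a dashed line at 0.21 for all genes and dotted lines at 2-fold. The elastic fibre genes have a median of 1.20, near the collagens at 1.15, the lymphatic markers at 1.35 and the fibroblast markers at 1.43. Smooth muscle markers at 0.20 and epithelial markers at 0.02 lie near the line for all genes. The macrophage markers, with a median of 1.68, and the mesothelial, fat cell, and skin and salivary gland markers are not drawn.

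Many but not all other fibroblast matrix genes were higher in the same library. Of 11 collagen genes of fibrils and beaded filaments, 7 were at least 2-fold higher and 0 lower. Of all genes past the filter, 3.75% were called higher and 1.54% lower. The median log2 ratio of the collagens was 1.15, beside 0.21 for all genes. Col14a1 (4.83-fold), Col6a3 (2.77-fold), Col5a2 (2.76-fold), Col3a1 (2.69-fold), Col12a1 (2.66-fold), Col5a3 (2.30-fold) and Col6a1 (2.24-fold) were those called. The type I collagen genes went opposite ways. Col1a1 was lower, at a ratio of 0.684 (0.632 to 0.740), and Col1a2 was higher, at 1.52 (1.45 to 1.59). The small leucine-rich proteoglycans were more uneven, with 3 of 7 called, Dcn (3.73-fold), Lum (2.87-fold) and Aspn (2.37-fold), and a median of 0.65. Prelp at a ratio of 0.641, Podn at 0.678 and Bgn at 0.924 were below 1. With 1 library a group, whether the elastic fibre genes differ from these lists was not tested.

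Markers of connective tissue moved with the elastic fibre genes. For each list below, the shares to compare are those of all genes past the filter, 3.75% called higher and 1.54% lower. All 12 fibroblast markers passed the filter, with 9 called higher and 0 called lower, and 5 of them are also in the collagen or proteoglycan lists. The summed level of the 12 was 1350 CPM in K14/hyal1 and 522 CPM in Control, a ratio of 2.59. Single markers ran from Col1a1 at a ratio of 0.684 to Pi16 at 6.07. The largest parts of the sum were Col3a1, at 425 CPM in K14/hyal1 and 158 CPM in Control, and Gsn, at 343 and 115 CPM. In bulk tissue more cells of a type and more RNA per cell cannot be told apart. The 10 smooth muscle markers, cells that also make elastin, summed to 3996 CPM in K14/hyal1 and 3409 CPM in Control, a ratio of 1.17 with 0 called. Blood vessel markers summed to 95.9 CPM in K14/hyal1 and 57.2 CPM in Control, with 1 of 9 called higher (Tek), and the 6 lymphatic markers to 59.2 CPM in K14/hyal1 and 15.9 CPM in Control, with 5 called higher (Reln, Lyve1, Flt4, Ccl21a and Pdpn). The 7 macrophage markers summed to 199 CPM in K14/hyal1 and 59.3 CPM in Control, with 5 called higher (Lyz2, Mrc1, Adgre1, C1qa and Csf1r). Of the called markers, Pi16, Tek, Flt4, Ccl21a, Pdpn and Adgre1 passed the filter through their K14/hyal1 level. The 7 mesothelial markers, which would mark the outer lining of the gut, were near 0, with a sum of 0.312 CPM in K14/hyal1, where 3 had 0 reads, and 0.552 CPM in Control. Fat cell markers summed to 35 CPM in K14/hyal1 and 40.6 CPM in Control. The 2 past the filter went opposite ways: Fabp4 was called higher, with 9.34 CPM in K14/hyal1 and 3.99 CPM in Control, and Plin4, which holds most of the sum, had 24.8 CPM in K14/hyal1 and 35.7 CPM in Control. The adipocyte-defining Adipoq was at 0.138 CPM in K14/hyal1 and 0.18 CPM in Control. Epithelial markers were abundant in both libraries, with a sum of 3902 CPM in K14/hyal1 and 4247 CPM in Control, 1 of 10 called lower (Muc2) and 0 higher, so the tissue labelled lamina propria held much epithelium. The smooth muscle sums above were of similar size, so the tissue also held muscle. The part of these cell types in the elastic fibre results was not tested.

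Set against the summed fibroblast markers, the elastic fibre genes lay on both sides. So did the single markers, with ratios from 0.684 (Col1a1) to 6.07 (Pi16) around the 2.59 of their sum. Relative to that sum, Fbn1 was 2.5-fold higher in K14/hyal1, Mfap5 1.78-fold, Fbln2 1.73-fold and Eln 1.65-fold. Fbn2, Fbln5 and Efemp1 were close to the markers, at 1.04, 0.984 and 0.95 times. Fbln1 was at 0.729, Emilin1 at 0.638 and Mfap4 at 0.421 times. As a percentage of the fibroblast marker sum, Fbn1 was 9.69% in K14/hyal1 and 3.87% in Control, and Emilin1 was 2.55% in K14/hyal1 and 4.0% in Control. This scaling was added after the values were seen, and no other gene set was tried as its base.

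The 10 genes differed in base composition and length. The GC content of their longest coding transcripts ran from 44.9% (Efemp1) to 61.1% (Emilin1), and Eln, with 58.8%, and Fbln2, with 57.0%, were both above 4-fold. Over all genes past the filter the median log2 ratio was 0.29 at a GC content of 40 to 45% and 0.04 at 60% or more. The Spearman correlation of GC content with the log2 ratio was -0.20 across the 10 genes, which share both libraries, and -0.17 across 13177 genes. With transcript length it was 0.41 across the 10 genes, which run from 1.51 kb (Mfap5) to 12.0 kb (Fbn1), and -0.19 across the 13177 genes. With the GC trend of all genes taken off, 4 of the 9 elastic fibre genes past the filter were called higher, beside 2.31% of all genes. With the length trend taken off, 4 of the 9 were also called higher, beside 2.08% of all genes. The part of either trend in the ratios was not tested further.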

How the data were processed

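RNA was extracted with a PureLink kit, and stranded, poly(A)-selected libraries were sequenced on a HiSeq instrument, per the labels' protocols. The submitters' processing notes name Partek and mm10; aligner, counting rule, strand setting and versions are not given in the sources. The authors deposited a table of 72178 transcript rows headed normalized counts, read here as CPM because low values are multiples of 1 step per library (0.0345 CPM in K14/hyal1, 0.0164 CPM in Control). After an offset of 0.0001 CPM per row was taken off, values were added up per symbol. Among genes of at most 300 reads, 82.9% in K14/hyal1 and 81.6% in Control were within 0.1 of a whole read, so reads are estimates and count models were not used. The authors' deposited gene table also holds a ratio and p-values with false discovery rates.

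With 1 library per genotype there was no test. The filter was the median of the mean CPM over 27125 symbols above 0. The 10 genes and all lists were chosen with earlier results of these data known. In each pathway list the genes named were those at 2-fold or beyond, and otherwise the highest and the lowest; the markers and other genes named were chosen after their values were seen. Coordinates, lengths and GC content are from GENCODE M21 (mm10), matched for 95.9% of symbols, and promoters from RefSeq (GRCm38.p6). Alternatives were other pseudocounts, scalings (TMM, the median gene, totals leaving out the 20 top genes), filters, fold thresholds, the gene table, 1 row per gene, removal of the length trend and, added later, scaling to fibroblast markers and removal of the GC trend. The steps were tested on simulated data. Scripts used scipy 1.17.1, pandas 2.3.3, numpy 2.4.6 and matplotlib 3.10.9 under Python 3.11.15.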

Additional observations from a re-analysis of the deposited data

How the results depend on the processing

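No paired analysis was possible because each genotype had 1 library, and no library could be left out. Of the 10 elastic fibre genes, 6 were called higher, and the number lay between 3 and 8 under all alternatives but the fibroblast scaling below, with 0 lower in each. The 8 came with the 1.5-fold threshold, which called 17.7% of all genes higher, and 3-fold left 4, beside 1.15% of all genes. A pseudocount of 10 CPM, which called 0.929% of all genes higher, left 3 called, Eln, Fbn1 and Fbln2; these were also called under every alternative but that scaling. Scaling to the median gene left 4 of 9, where that scaling called 2.22% of all genes higher, and TMM left 5.

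The median log2 ratio of the 9 genes past the filter, 1.20, was 0.57 with a pseudocount of 10 CPM, 0.98 scaled to the median gene, 1.02 with TMM, 1.0 with the length trend taken off, 0.92 with the GC trend taken off and 1.59 with the filter at a mean of 10 CPM, which kept 6 genes. Leaving out 1 gene at a time gave 1.12 to 1.44.

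Scaling to the fibroblast markers, chosen after the data were seen, left 1 gene called (Fbn1) and a median of -0.016, with Fbln5 at -0.016 and Efemp1 at -0.066; it sets the markers equal by construction and called 45.9% of all genes lower.

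For the assembly and crosslinking genes, 4 were called higher and 0 lower, with a median of 0.40. The number higher was 2 with a pseudocount of 10 CPM, 2 with the filter at 10 CPM, where 3.68% of all genes were called higher, 10 at 1.5-fold (with 1 lower), 2 at 3-fold (the shares of all genes are those above), and 1 under the fibroblast scaling, with 8 lower. Their median was 0.19 with a pseudocount of 10 CPM, 0.18 scaled to the median gene, 0.22 with TMM, 0.24 with totals without the 20 most abundant genes, 0.25 with the length trend taken off, 0.16 with the GC trend taken off, 0.25 without a filter and -0.75 under the fibroblast scaling. Beyond the effect each alternative has by construction, the cause was not tested. Depth limited Fbn2 most, with 96 estimated reads in K14/hyal1 and 75 in Control.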
